A study of Mus musculus with 18 samples.

Results

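Chrna1 encodes the alpha subunit of the acetylcholine receptor of skeletal muscle, and it was described here together with 9 genes of the muscle fibre. The 10 genes were Chrna1, Myog, Acta1, Mylpf, Myh1, Myh4, Tnnc2, Tnnt3, Atp2a1 and Ckm, which 14 probes measured, out of 22911 mouse genes named on the array. They were chosen by the level of Chrna1 in ERBOE lesions against PRCre lesions on these same arrays, so that difference is given as a description, with no test. The other 9 were listed as its companions in body wall muscle.

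RNA was measured on 18 one-colour Agilent arrays in 6 groups of 3, and every array carried total RNA pooled from 3 female mice, so that 9 animals stood behind each group. ERBOE lesions and PRCre lesions grew from a 2 mm piece of endometrium of an ERBOE or a PRCre donor, placed in a wild-type C57BL/6J host 8 weeks of age and collected at estrus 4 weeks after surgery. The labels describe ERBOE as an overexpression model of oestrogen receptor beta. PRCre mice (PRCre/+), which carry the Cre driver, served as the control genotype. Both kinds of lesion therefore held graft tissue and wild-type host tissue around it. Eutopic endometrium was taken from hosts of either genotype, 8 weeks of age, that had borne a wild-type graft for 4 weeks. By this account no animal gave both a lesion and eutopic endometrium, although the labels are not in full accord: one field names the ERBOE animals of these groups as having no endometriosis, and the titles were followed. The design text also speaks of harvesting ectopic lesions for the eutopic groups before it names eutopic RNA, so every difference between lesions and eutopic endometrium given here rests on the titles. Uterus of either genotype was collected at estrus from 12-week-old mice that had no operation.

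Levels are log2 processed signals minus the 75th percentile of the array, so 0 is the level of a fairly bright probe and a step of 1 is a doubling. That percentile was 239.6 on PRCre uterus replicate 1 and between 455.1 and 744.7 on the other arrays. By the scanner software's own call, 55.3% to 74.2% of an array's probes exceeded background clearly, which is called well above background here. Over the features tested, correlations between arrays lay between 0.915 and 0.976. All 12 markers of endometrial stroma and uterine identity were well above background on each of the 18 arrays. Esr2, the gene of that receptor, passed the threshold in no tissue: ERBOE minus PRCre was -0.26 ± 0.20 in lesions, 0.01 ± 0.20 in eutopic endometrium and -0.24 ± 0.20 in uterus (limma difference ± SE, n = 3 arrays each, no adjusted p under 0.05). The position of that probe with respect to the transgene is unknown here.

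In skeletal muscle, the receptor for acetylcholine is built from alpha, beta and delta subunits with a gamma subunit before birth and an epsilon subunit after it. It gathers under the nerve ending, and muscle that loses its nerve makes receptor along the whole fibre. Myogenin and its relatives MyoD, Myf5 and Myf6 bind E-boxes, short sites of the form CANNTG, in the promoters of receptor and fibre genes. Body wall muscle lies next to the peritoneal cavity, and its fast fibres carry skeletal actin, fast myosins, fast troponins, a fast calcium pump and muscle creatine kinase.

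The promoters are shown because the members are joined in textbooks by these sites. RefSeq (build GRCm38.p6) gave the promoter of 9 of the 10 members. The printed windows are the 120 bases before the start given by each promoter entry, on the strand of the gene, with each CANNTG in capitals. For Mylpf that start lies inside the gene as mapped (chr7:127208848-127214288), and for Atp2a1 it lies slightly inside. Chrna1, chr2:73580339-73580458 on the minus strand, held 3 of them.
Chrna1: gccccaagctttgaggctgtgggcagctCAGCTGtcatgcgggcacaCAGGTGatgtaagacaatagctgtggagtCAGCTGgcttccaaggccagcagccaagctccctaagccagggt
Myog, chr1:134289884-134290003 on the plus strand, held 1.
Myog: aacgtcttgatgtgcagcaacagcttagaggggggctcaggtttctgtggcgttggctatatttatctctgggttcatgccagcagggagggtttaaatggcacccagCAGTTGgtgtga
Mylpf, chr7:127211488-127211607 on the plus strand, also held 1.
Mylpf: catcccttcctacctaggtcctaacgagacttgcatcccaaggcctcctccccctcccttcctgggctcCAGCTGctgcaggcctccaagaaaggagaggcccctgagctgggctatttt
Ckm, chr7:19410974-19411093 on the plus strand, held 0 in this window and 1 farther out.
Ckm: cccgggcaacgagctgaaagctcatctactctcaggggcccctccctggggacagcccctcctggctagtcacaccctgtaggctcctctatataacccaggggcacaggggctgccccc

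Over the 250 bases before the start, 8 of the 9 promoters held CANNTG, which reads the same on both strands, and so did 66.2% of the 32536 promoters in the table. The narrower form CAGCTG, which is contained in CANNTG, stood in 6 of the 9 members and in 13.1% of all promoters. TATAAA on either strand stood in 3 of the 9 and in 12.3% of all. Chrna1 had 3 matches to CANNTG in that window, of which 2 were CAGCTG, against a median of 1 match over all promoters. These are matches of letters, and no binding was measured.

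Chrna1 was well above background on all 3 ERBOE lesion arrays and on none of the 3 PRCre lesion arrays. Its probe (A_52_P533707, transcript NM_007389, gene at chr2:73563281-73580338) read -1.62, -2.49 and -2.67 in ERBOE lesions, against -5.50, -6.77 and -6.70 in PRCre lesions. In eutopic endometrium it read -6.61, -5.08 and -5.60 in ERBOE and -6.69, -7.02 and -6.31 in PRCre. In uterus it read -5.89, -5.62 and -5.78 in ERBOE and -5.53, -3.57 and -6.16 in PRCre. Only 2 arrays outside the ERBOE lesions passed the background call, ERBOE eutopic replicate 2 and PRCre uterus replicate 2. The 3 ERBOE lesion arrays were above every other array of the series.

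ERBOE lesions averaged -2.26 ± 0.56 and PRCre lesions -6.32 ± 0.72 (SD, n = 3 each), a difference of 4.06 log2 units. Since PRCre lesions had no array above background, the fold is given as a bound. It was 6.44-fold or more between the group means, and holds only under the background subtraction used here. The bound sets the ERBOE lesion mean against, on each PRCre array, the higher of the probe's own signal and the lowest signal among probes well above background. None of the 33455 features passed an adjusted p of 0.05 in ERBOE minus PRCre lesions (limma, 0%), while 1496 had an unadjusted p under 0.05. Another background correction shrank the difference: with normexp it was 1.47 log2 units, a smaller fold than that bound. Other scalings and models gave 3.88 to 4.20. Within slides it was 3.46 on slide 2 (1 array against 2) and 4.21 on slide 3 (1 against 1). Slide 1 held no PRCre lesion. In bulk tissue, fewer cells of a type and less RNA per cell cannot be told apart.

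ERBOE lesions also lay above ERBOE eutopic endometrium, by 3.50 log2 units (1.50 with normexp), and by 3.71 and 3.94 within slides 1 and 2. In PRCre, lesions minus eutopic endometrium was 0.35, with no array of either group above background. No test is given for either value, because lesion arrays chose Chrna1. In order of the group means, ERBOE lesions came first and were separated from PRCre uterus (-5.09 ± 1.35) by 2.82, and each later pair of neighbours overlapped: ERBOE eutopic (-5.76 ± 0.78), ERBOE uterus (-5.76 ± 0.13), PRCre lesions (-6.32 ± 0.72) and PRCre eutopic (-6.67 ± 0.36). Outside lesions the genotypes did not differ beyond their spread: ERBOE minus PRCre was 0.91 ± 0.58 in eutopic endometrium (limma adjusted p = 1.00) and -0.68 ± 0.58 in uterus (limma adjusted p = 0.728).

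**Figure D1:**
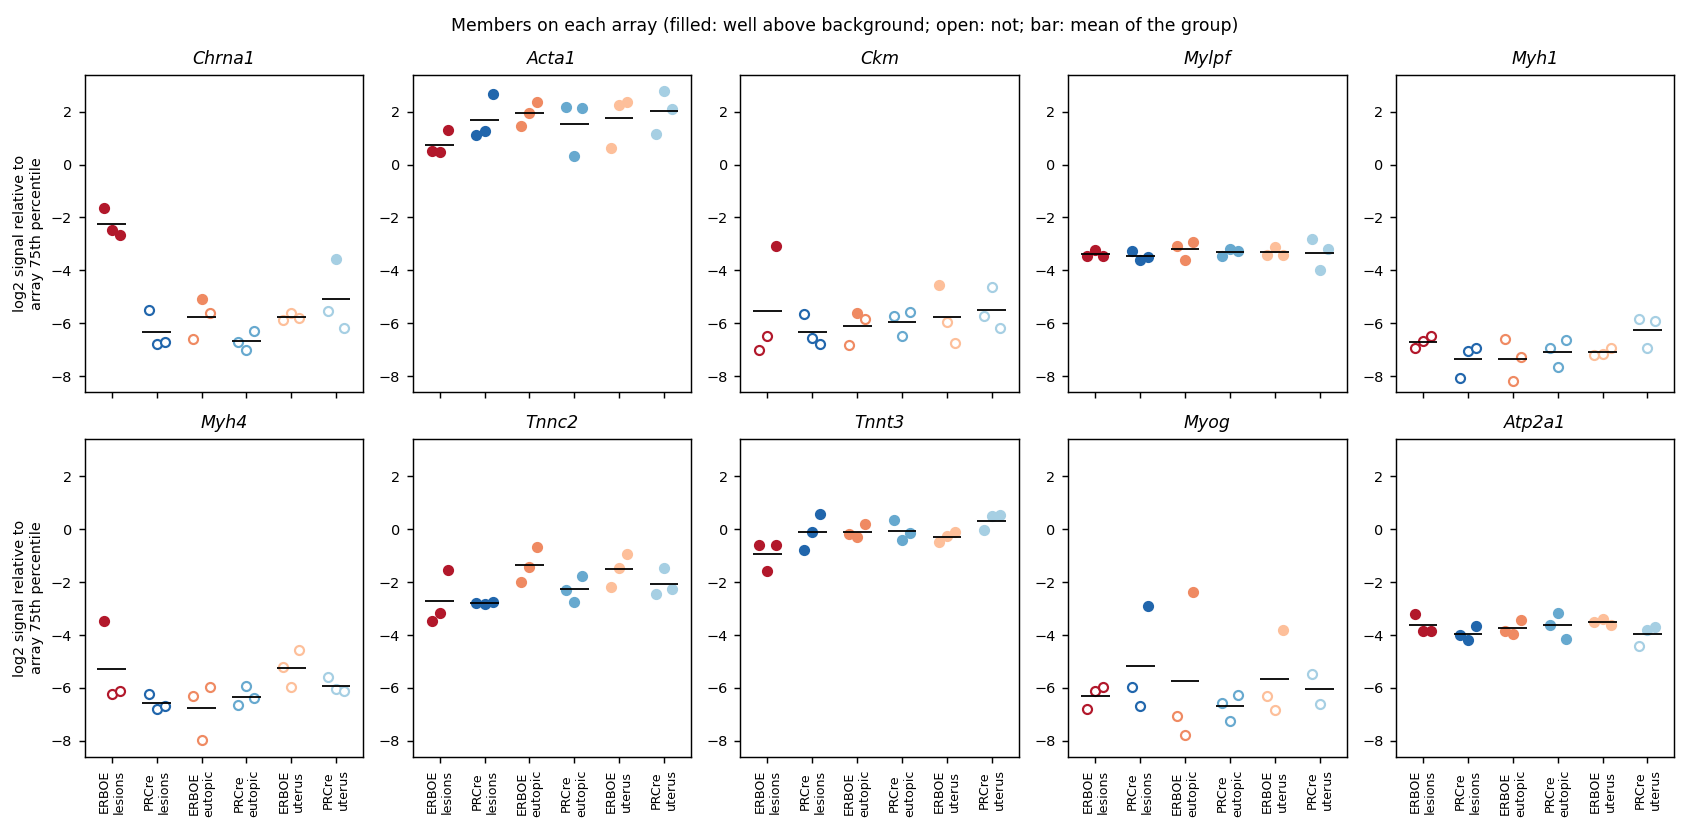
Level of each of the 10 genes on each array (y axis, log2 signal relative to the array's 75th percentile; x axis, the 6 groups of 3 arrays; filled points well above background, open points not, bars group means). The 3 filled Chrna1 points of ERBOE lesions, from -2.67 to -1.62, lie above all other Chrna1 points, while the fibre genes show no such step.

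The partners of Chrna1 in the receptor and at the junction did not share this pattern as a group. Of 13 such genes on the array, 10 passed the filter, which asked for 3 or more arrays well above background. Of the 9 tested apart from Chrna1, 0 passed an adjusted p of 0.05 in ERBOE lesions minus ERBOE eutopic endometrium, where 0.601% of all features did (201 of 33455). Their smallest adjusted p was 0.340, and the median difference of the 10 was 0.07, against -0.13 over all features. In PRCre lesions minus PRCre eutopic endometrium, 0 of 9 passed as well, with a background of 0.00299%.

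Chrnb1, the beta subunit, read -3.31, -3.33 and -3.70 in ERBOE lesions, against -3.96, -5.40 and -6.15 in PRCre lesions. Its lesion arrays did not overlap, and ERBOE minus PRCre was 1.72, but only replicates 1 and 2 of the ERBOE lesions and replicate 1 of the PRCre lesions were above background. Against ERBOE eutopic endometrium the difference was 1.62 ± 0.89 (limma adjusted p = 0.560). Chrnd, the delta subunit, was above background on 0 of the 18 arrays. Chrng, the subunit made before birth and after loss of the nerve, was above background on 1 ERBOE lesion array (-3.03) and 1 PRCre lesion array (-4.89). Chrne, the subunit of adult muscle, was above background on all 18 arrays and differed by -0.45 between ERBOE and PRCre lesions.

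Rapsn, which clusters the receptor, was above background on all 18 arrays and was 0.33 higher in ERBOE than in PRCre lesions, with overlapping arrays. Musk, the kinase that receives the nerve's signal, passed the background call on 1 PRCre lesion array and on no ERBOE lesion array. Its adaptor Dok7 differed by -1.14 between ERBOE lesions and ERBOE eutopic endometrium (limma adjusted p = 0.636), and its partner Lrp4 by -0.71 (limma adjusted p = 0.340). Agrn, the nerve-derived ligand that epithelia also make, differed by 0.25 (limma adjusted p = 0.867). ERBOE minus PRCre lesions was -1.30 for Colq, the tail that anchors acetylcholinesterase, and -0.32 for Lrp4. Both genes had all ERBOE lesion arrays below all PRCre lesion arrays. The enzyme gene Ache was above background on no lesion array. Scn4a, the sodium channel of muscle, differed by -0.59 between ERBOE lesions and ERBOE eutopic endometrium (limma adjusted p = 0.684).

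The neuronal subunits of the receptor family gave 4 of 11 genes past the filter and 0 past the threshold in either comparison of lesions with eutopic endometrium. Chrna7, Chrnb2 and Chrnb3 were above background on no array. The brightest, Chrna9, differed by 0.34 between ERBOE and PRCre lesions, Chrna2 by -0.27 and Chrnb4 by 0.08, each with overlapping arrays.

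Myog, which encodes myogenin, the factor that drives myoblasts to fuse and express fibre genes, was not well above background in any ERBOE lesion. It read -6.78, -6.12 and -5.95 there, against -5.97, -6.68 and -2.90 in PRCre lesions. The last of these, PRCre lesion replicate 3, was above background, as were ERBOE eutopic replicate 3 (-2.37) and ERBOE uterus replicate 3 (-3.80). PRCre uterus replicate 3 was also called above background, but its spot was called an outlier, so that array has no Myog value here and the group has n = 2. ERBOE lesions minus ERBOE eutopic endometrium was -0.54 ± 1.27 (limma adjusted p = 0.921), a value that becomes 1.14 without ERBOE eutopic replicate 3. So the arrays with Chrna1 and the arrays with Myog were different ones.

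The other myogenic regulators gave the same count. Of 15 genes of myogenic regulation and satellite cells, 10 passed the filter and 0 passed the threshold in lesions against eutopic endometrium of either genotype, with medians of -0.14 in ERBOE and -0.25 in PRCre. Pax7, the marker of satellite cells, and Mymx and Vgll2 were above background on no array. Myod1 passed on 1 array that was not a lesion, and Myf5 on PRCre lesion replicate 2 (-4.47). Myf6 passed on 3 arrays of eutopic endometrium and no lesion. Values for ERBOE minus PRCre lesions were 0.73 for Pax3, 0.17 for Six4, 0.09 for Mymk, -0.16 for Mef2c, -0.38 for Cdh15 and -0.77 for Chodl, all with overlapping arrays. Des, the intermediate filament of every muscle type, differed by 0.15 between ERBOE and PRCre lesions.

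**Figure D2:**
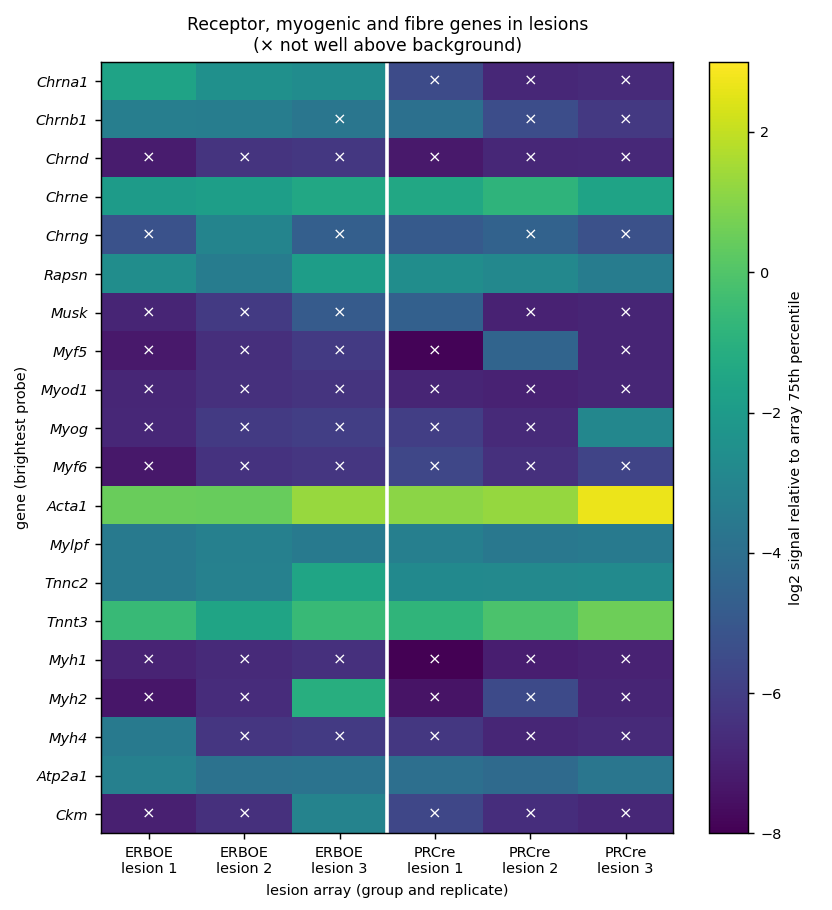
Level of receptor, myogenic and fibre genes on the 6 lesion arrays (columns: ERBOE lesions on the left, PRCre lesions on the right; colour: log2 signal relative to the array's 75th percentile; a cross marks a probe not well above background). Chrna1 is uncrossed on the ERBOE lesion arrays and crossed on the PRCre lesion arrays, Chrnd, Myod1, Myf6 and Myh1 are crossed on all 6, and Ckm and Myh2 are uncrossed on ERBOE lesion replicate 3 alone.

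The genes of the fast fibre split into those seen on all arrays and those hardly seen at all. Acta1, Mylpf, Tnnc2 and Tnnt3 were above background on all 18 arrays and Atp2a1 on 17, uterus included. Myh1 was above background on none, Ckm on 3 and each Myh4 probe on 1. Of the 9 members other than Chrna1, 5 were above background on all 3 ERBOE lesion arrays, and 5 were on all 3 PRCre lesion arrays.

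Acta1, skeletal alpha-actin, read 0.50, 0.46 and 1.30 in ERBOE lesions, against 1.10, 1.28 and 2.66 in PRCre lesions and 1.46, 1.96 and 2.38 in ERBOE eutopic endometrium. All ERBOE lesion arrays lay below all ERBOE eutopic arrays, as for Tnnt3 and for 13.5% of all features, yet the difference of -1.18 ± 0.62 did not pass (limma adjusted p = 0.532). Actins of other tissues are close in sequence, so part of this probe's signal may belong to them. Acta1 in PRCre lesions averaged 1.68 ± 0.85 and in PRCre eutopic endometrium 1.53 ± 1.06 (SD, n = 3 each).

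Tnnc2, the calcium sensor of fast fibres, read -3.47, -3.17 and -1.54 in ERBOE lesions, against -2.80, -2.84 and -2.75 in PRCre lesions and -2.01, -1.42 and -0.67 in ERBOE eutopic endometrium. ERBOE lesions minus ERBOE eutopic endometrium was -1.36 ± 0.49, the smallest p of any member (unadjusted 0.0148, limma adjusted p = 0.317). Tnnt3, the tropomyosin-binding troponin of fast fibres, read -0.60, -1.58 and -0.61 in ERBOE lesions, against -0.78, -0.10 and 0.57 in PRCre lesions and -0.20, -0.30 and 0.19 in ERBOE eutopic endometrium. The ERBOE lesion arrays were below the ERBOE eutopic arrays, by -0.83 ± 0.35 on average (unadjusted p = 0.0328, limma adjusted p = 0.412).

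Mylpf, the fast regulatory light chain, was level across the series by its brightest probe, with group means from -3.45 in PRCre lesions to -3.20 in ERBOE eutopic endometrium. Its ERBOE lesion arrays read -3.45, -3.22 and -3.46, against -3.26, -3.61 and -3.48 in PRCre lesions. The second Mylpf probe was above background on 14 arrays. It averaged -4.63 in ERBOE lesions, -4.07 in PRCre lesions and -3.91 in ERBOE eutopic endometrium. With the mean of all probes, ERBOE minus PRCre lesions was -0.24 for Mylpf, against 0.07 with the brightest. Atp2a1, the calcium pump of fast fibres, averaged -3.63 ± 0.37 in ERBOE lesions and -3.96 ± 0.27 in PRCre lesions (SD, n = 3 each), with overlapping arrays.

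Ckm, the creatine kinase of muscle, read -7.01, -6.48 and -3.07 in ERBOE lesions, against -5.65, -6.57 and -6.79 in PRCre lesions. Replicate 3 of the ERBOE lesions was the only lesion array above background. ERBOE minus PRCre lesions was 0.82 with that array and -0.41 without it. ERBOE lesions minus ERBOE eutopic endometrium was 0.56 ± 0.84 with it (limma adjusted p = 0.873) and -0.66 without it.

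Myh1, a fast myosin heavy chain, was not above background on any array, with group means from -7.36 in PRCre lesions to -6.23 in PRCre uterus. Myh4, the myosin of the fastest fibres, was above background on ERBOE lesion replicate 1 by one probe (-3.48) and on PRCre uterus replicate 3 by the other (-3.08), and in neither case did the second probe of the gene pass. These 2 genes did not pass the filter and have no test.

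Over the members that passed the filter and could be tested, 0 of 7 passed the threshold in ERBOE lesions minus ERBOE eutopic endometrium and 0 of 7 in PRCre lesions minus PRCre eutopic endometrium. At an unadjusted p under 0.05 they were 2 of 7 in ERBOE, where 10.6% of all features were, and 0 of 7 in PRCre, where 3.95% were. The median difference of the 8 members was -0.36 in ERBOE (all features -0.13) and -0.09 in PRCre (all features -0.06). The ERBOE median depends on single arrays and lay between -0.69 and 0.12 when each array was left out in turn. In ERBOE minus PRCre lesions the median was 0.07 (all features -0.06), and 1 of the 8, Chrna1, had all ERBOE arrays above all PRCre arrays, as did 5.28% of all features. Because that contrast chose Chrna1, nothing is read from the count. In the comparisons that hold no lesion, ERBOE minus PRCre in eutopic endometrium and in uterus, and eutopic endometrium minus uterus in ERBOE and in PRCre, 0 of 8 members passed, with 0% of all features (limma, 33455 tested). The unadjusted counts over all features there were 996, 3303, 1115 and 2231.

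**Figure D3:**
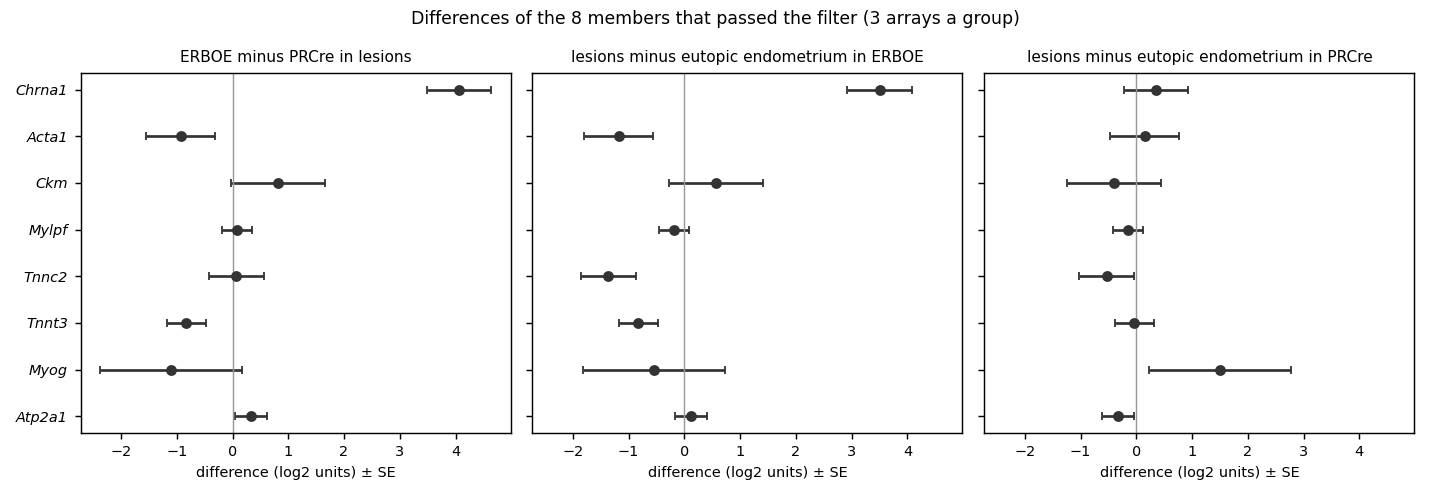
Differences of the 8 members that passed the filter (x axis, log2 units ± SE from the limma fit; panels, ERBOE minus PRCre lesions and lesions minus eutopic endometrium in ERBOE and in PRCre; n = 3 arrays a group). Chrna1 stands at 4.06 and 3.50 in the panels that hold ERBOE lesions and at 0.35 in PRCre, and Acta1, Tnnc2 and Tnnt3 stand below 0 in ERBOE lesions against ERBOE eutopic endometrium.

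Other genes of the fast sarcomere followed no single direction. Of 15 on the array, 10 passed the filter and 0 passed the threshold in ERBOE lesions minus ERBOE eutopic endometrium (median -0.15). Tnni2, the inhibitory troponin of fast fibres, read 0.68, 0.38 and 0.45 in ERBOE lesions, against 1.15, 1.67 and 3.63 in PRCre lesions and 1.97, 2.12 and 3.10 in ERBOE eutopic endometrium. Its difference from ERBOE eutopic endometrium was -1.89 ± 0.57 (limma adjusted p = 0.201). Tpm1 and Mybpc2, a tropomyosin and a myosin-binding protein, differed by -0.11 and -0.08. Myl1 and Myh2 are named after their values were seen. Myl1, the alkali light chain of fast fibres, read -0.71, -0.63 and -0.73 in ERBOE lesions, against -2.32, -1.09 and -2.96 in PRCre lesions and -2.40, -3.76 and -3.75 in ERBOE eutopic endometrium. It was 2.61 ± 0.73 higher than in ERBOE eutopic endometrium without passing (limma adjusted p = 0.157). Myh2, a fast myosin, was above background on ERBOE lesion replicate 3 (-1.10) and on PRCre uterus replicate 1 (-1.82) only. Neb and Ttn, the giant proteins of the sarcomere, were above background on no array.

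Among the genes of calcium handling and of muscle energy metabolism, 1 each passed the threshold in ERBOE lesions minus ERBOE eutopic endometrium. Trdn, triadin of the calcium release complex, fell by 3.00 ± 0.44 (limma adjusted p = 0.00594) and was the one call among 13 calcium genes. It read -5.37, -4.91 and -3.82 in ERBOE lesions, against -1.39, -1.68 and -2.02 in ERBOE eutopic endometrium, and it kept the call under all 29 alternatives, with differences between -3.44 and -1.39. Car3, a carbonic anhydrase of slow muscle and of fat cells, rose by 7.44 ± 1.25 (limma adjusted p = 0.0121), the one call among 16 genes of muscle energy metabolism. Its call was lost when ERBOE lesion replicate 1 or 3 or ERBOE eutopic replicate 2 or 3 was left out, with differences of 6.35 or more and adjusted p up to 0.0727.

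In PRCre lesions minus PRCre eutopic endometrium these genes differed by -1.96 for Trdn (limma adjusted p = 0.294) and 5.12 for Car3 (limma adjusted p = 0.405). Whether the genotypes differ in this respect was not tested. Of the slow and cardiac sarcomere, 15 of 18 genes passed the filter and 0 passed the threshold, with differences in ERBOE of 0.26 for Tpm3, -0.40 for Actc1 and -1.02 for Tnnt1. Of the Z disc, M band and membrane, 15 of 20 passed the filter and 0 the threshold, with -0.83 for Myom1 and -0.48 for Dmd. Cav3, the caveolin of muscle, belongs to that list and is named after its values were seen. It read -0.02, -2.14 and -1.12 in ERBOE lesions, against -3.04, -3.52 and -2.61 in PRCre lesions, above background on all 6 arrays and with no overlap. ERBOE minus PRCre lesions was 1.96 for Cav3, and ERBOE lesions minus ERBOE eutopic endometrium was 1.75 ± 0.60 (limma adjusted p = 0.279). Other bright genes of these lists had, in the same comparison, -0.65 (Fbxo32), 0.04 (Gadd45a), 0.55 (Ncam1), -0.15 (Jsrp1), -0.14 (Jph2), -0.50 (Stac3), 0.75 (Ak1), 1.37 (Slc2a4) and -0.35 (Pfkm), none past the threshold.

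Array by array, the fibre genes did not share a common order of the ERBOE lesions, and only some differed from Chrna1 in their highest array. ERBOE lesion replicate 3 had the highest Ckm, Myh2, Tnnc2 and Acta1 of the 3 and the lowest Chrna1. ERBOE lesion replicate 1 had the highest Chrna1, with Myh4 above background by 1 of its 2 probes (-3.48) and Ckm, Myh1 and Myh2 not above background. Atp2a1 (-3.21, against a median of -3.83 in the group), Tnni2 and Cav3 were highest on replicate 1 too. Tnnt3 was nearly level between replicates 1 and 3, and Mylpf and Myl1 were highest on replicate 2. The summed level of the 15 fast sarcomere genes lay between 2.93 and 3.88 in ERBOE lesions, with replicate 1 the highest, between 3.16 and 4.75 in PRCre lesions, between 3.81 and 4.57 in ERBOE eutopic endometrium and between 3.52 and 4.78 in PRCre eutopic endometrium. ERBOE lesions were not above the other groups in that sum. The sum adds unlogged levels, so the bright genes Tpm1, Tnni2 and Acta1, seen on uterus arrays as well, made up most of it. Myh1, Myh4, Neb and Ttn, seldom or never above background, added little. A small amount of fibre RNA could therefore not show in this sum, and nothing is concluded from it. Over the 18 arrays, Pearson's r with Chrna1 was 0.28 for Ckm, 0.10 for Atp2a1, -0.13 for Myog (17 arrays), -0.15 for Tnnc2, -0.25 for Mylpf, -0.28 for Acta1 and -0.51 for Tnnt3, as a description of arrays that share groups and slides.

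Markers of the adipocyte moved with the lesions, and with Chrna1 in part. All 12 were above background on every lesion array. In ERBOE lesions minus ERBOE eutopic endometrium 10 of 12 passed the threshold, where 0.601% of all features did, with a median difference of 6.37. Plin1, the coat of the lipid droplet, rose by 6.38 ± 0.82 (limma adjusted p = 0.00299) and Fabp4, a fatty acid carrier, by 7.88 ± 1.26 (limma adjusted p = 0.0104). The count fell to between 4 and 6 without any one of ERBOE lesion replicates 1, 2 and 3 and ERBOE eutopic replicates 2 and 3. In PRCre, 0 of 12 passed, where only 0.00299% of all features did (1 of 33455), with a median of 4.67. Plin1 differed there by 4.44 ± 0.82 (limma adjusted p = 0.134) and Fabp4 by 5.63 ± 1.26 (limma adjusted p = 0.294). Whether the rise differs between genotypes was not tested. The summed level was 9.11, 8.74 and 9.36 in ERBOE lesions, against 7.07, 8.79 and 6.57 in PRCre lesions, and between 2.06 and 5.15 in ERBOE eutopic endometrium. By this sum PRCre lesion replicate 2 (8.79) lay beside ERBOE lesion replicate 2 (8.74), with Chrna1 at -6.77 and not above background, against -2.49. The sum adds unlogged levels, so its brightest genes weigh most, and single markers ranked these arrays otherwise. For Adipoq, Plin1, Lipe, Retn and Pparg, all ERBOE lesion arrays lay above all PRCre lesion arrays, as for 5.28% of all features. The arrays of the other adipocyte markers overlapped. The part of fat tissue in the Chrna1 difference was not tested.

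**Figure D4:**
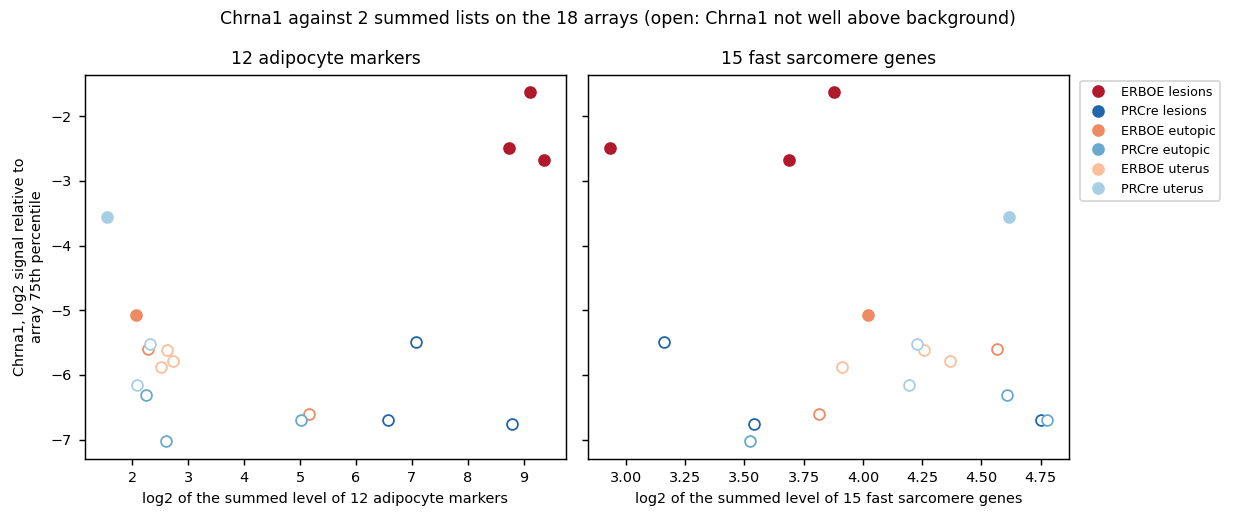
Chrna1 level (y axis) against the log2 summed level of 12 adipocyte markers (left) and of 15 fast sarcomere genes (right) on the 18 arrays (filled points: Chrna1 well above background). ERBOE lesions, between 8.74 and 9.36 on the left, lie beside PRCre lesion replicate 2 at 8.79, and on the right they lie between 2.93 and 3.88, at the low end of the series. Both sums add unlogged levels, so their brightest genes make up most of them.

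Tendon and fascia markers had 2 of 6 genes past the threshold in ERBOE lesions minus ERBOE eutopic endometrium, where 0.601% of all features passed. Fmod rose by 2.46 ± 0.42 (limma adjusted p = 0.0142) and Comp by 2.17 ± 0.42 (limma adjusted p = 0.0301). Both calls were lost without ERBOE lesion replicate 1, where Fmod differed by 2.20 and Comp by 1.76, and without ERBOE eutopic replicate 1 or 3. Comp also lost it without ERBOE lesion replicate 3 or ERBOE eutopic replicate 2. Tnmd and Kera were above background on no lesion array, while Scx, Thbs4 and Angptl7 were above background on every lesion array. Thbs4 rose by 3.83 ± 0.91 in ERBOE (limma adjusted p = 0.0833) and by 2.77 ± 0.91 in PRCre (limma adjusted p = 0.905). In ERBOE, Scx differed by 0.34, Mkx by 0.70 and Angptl7 by -1.21, none past the threshold. Scx averaged 1.34 in ERBOE lesions, 1.51 in ERBOE uterus and -0.10 in PRCre uterus, so it was not particular to lesions. Whether any of these genes came with body wall was not tested. The list summed to between 1.41 and 3.79 in ERBOE lesions and between 1.37 and 2.73 in PRCre lesions. Smooth muscle markers, which uterus and vessels share, had 0 of 14 past the threshold (median -0.44) and summed to between 8.41 and 9.99 in ERBOE lesions and between 8.81 and 9.96 in PRCre lesions. Schwann cell and nerve markers had 0 of 8 past the threshold and summed to between 4.11 and 4.52 in ERBOE lesions and between 4.17 and 4.45 in PRCre lesions.

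The other marker lists had 0 genes past the threshold in ERBOE lesions minus ERBOE eutopic endometrium. Their median differences were -0.01 for 8 mesothelial, -0.28 for 10 epithelial, -0.74 for 12 endometrial stroma and uterine, 1.14 for 8 macrophage, 0.14 for 7 T cell and 0.18 for 4 thymus genes. Summed T cell markers lay between 2.71 and 3.63 in ERBOE lesions and between 2.93 and 5.54 in PRCre lesions. Among the thymus genes, Rag1 and Psmb11 were above background on no array.

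In ERBOE minus PRCre lesions, where Chrna1 differed, some marker lists were shifted as well (median of all features -0.06). The adipocyte median was 1.55, with 12 of 12 genes above 0. The tendon and fascia median was 0.66, with 5 of 6 above 0. Fmod, at 1.28, had all ERBOE arrays above all PRCre arrays, as did 5.28% of all features. So did Adipoq, Plin1, Lipe, Retn and Pparg among the adipocyte genes and Cldn4 among the epithelial genes. Synm and Synpo2, of the smooth muscle list, had all ERBOE arrays below all PRCre arrays. The T cell median was -0.74, with 0 of 7 above 0, and the smooth muscle median -0.22, with 1 of 14 above 0. The medians of the other lists lay between -0.56 for thymus and 0.17 for mesothelial genes. Among the epithelial genes (median -0.10), Foxa2, a factor of uterine glands that is named after its values were seen, read -2.99, -1.23 and -2.51 in ERBOE lesions, against -3.39, -6.66 and -6.88 in PRCre lesions. It was above background on 3 ERBOE and 1 PRCre lesion arrays, and its arrays did not overlap. The part of these cell types in the Chrna1 difference was not tested.

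The features whose levels ran most like Chrna1 over the 18 arrays were Acat3 (Pearson's r 0.84), Chrm1 (0.83), Adra1d (0.83), Atp1a4 (0.83) and Prl2c1 (0.81). None of the 5 is a fibre gene of the lists used here. Chrm1, a muscarinic acetylcholine receptor, averaged -1.06 in ERBOE lesions, -3.07 in PRCre lesions and -2.72 in ERBOE eutopic endometrium. The features most like the mean of the members were Mvk (0.83), Sphkap (0.81), Armc6 (0.78), Nat14 (0.78) and Calu (0.78). The 5 nearest to Chrna1 were picked for their likeness over arrays that include the ERBOE lesions, so their own difference there is no further result.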

How the data were processed

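The deposited scanner files hold spot intensity from 1-colour arrays, read with Feature Extraction 11.0.1.1 and background-subtracted by that software, per the file headers. The authors' deposited value table holds log2 values centred per probe, and with both centred on the probe median it correlated with the scanner values at 0.9989 to 0.9996 per array. The sources used here do not say how that table was scaled.

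From the processed intensity, control spots were left out and spots called outliers were left missing. The log2 signal minus the array's 75th percentile was averaged per probe. Probes were named through RefSeq GRCm38.p6 (32994 of 56605 probes), the brightest probe stood for a gene, and features well above background on at least 3 of 18 arrays were kept, 33455 of 46522. One limma model (limma 3.58.1, R 4.3.3) held the 6 group means over 18 arrays (residual degrees of freedom 12, prior 2.47), with 2-sided tests and Benjamini-Hochberg adjustment over all features at 0.05. It was tested on simulated data. Tables were made with Python 3.11.15 and pandas 2.3.3. Precision is limited by 3 arrays a group, each a pool of 3 animals.

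The members and the gene lists were chosen with earlier results of these data known, so no list has a test of its own. Lists were described by counts and medians. Named were all members, all receptor, junction and myogenic genes, up to 3 of the brightest other genes of each further list plus any past the threshold, and the 5 features most like Chrna1 and most like the members' mean. Of the marker lists, examples are named where several genes passed. Scx, Thbs4, Mkx, Angptl7 and the markers named because their lesion arrays did not overlap were added after seeing the data. Alternatives were median scaling, quantile normalization, normexp with an offset of 50 on the median signal (no mean signal column was used here), the deposited table, no filter, the mean of all probes, slide as fixed or random block, a replicate block, trended and robust variance, array weights and leaving out each array. Every probe of a member shown on its own was added after seeing the data. Some genes of the lists are not reported here.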

Additional observations from a re-analysis of the deposited data

Results flagged for a closer look

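The genotype difference of Chrna1 took opposite signs in different tissues. ERBOE minus PRCre was 4.06 log2 units in lesions and -0.68 in uterus, and the difference between these tissues was not tested because the lesion arrays chose the gene. It was 0.91 in eutopic endometrium and -0.68 in uterus, and limma's test of that difference gave 1.59 ± 0.82 with an adjusted p of 0.963. Of the 12 arrays of eutopic endometrium and uterus, 2 were above background for Chrna1. One of them, PRCre uterus replicate 2 at -3.57, sets the sign in uterus: without it, ERBOE minus PRCre there was 0.08.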

How the results depend on the processing

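No member passed the threshold under any of the 29 alternatives in any comparison tested. The number of all features past it moved in ERBOE minus PRCre lesions (0 as reported) to 2 with normexp, 1 with slide as a random block, 1 with trended and robust variance and 5 with array weights. In ERBOE lesions minus eutopic endometrium (201) array weights gave 1244. In PRCre lesions minus eutopic endometrium (1) it was 6 with median scaling, 7 with normexp, 4 with trended and robust variance and 26 with array weights, and in PRCre eutopic endometrium minus uterus (0) normexp gave 1. Leaving out 1 array gave 0 to 5 in lesions, 0 to 1 in eutopic endometrium and 0 to 16 in uterus between genotypes, 63 to 264 and 1 to 51 in lesions minus eutopic endometrium of ERBOE and PRCre, and 0 to 8 in PRCre eutopic endometrium minus uterus. The 63 came without ERBOE lesion replicate 1. The median of the members moved in uterus to 0.30 with quantile normalization (-0.12 as reported), and in ERBOE lesions minus eutopic endometrium to -0.0182 with normexp and -0.0339 without the filter (-0.36). Leaving out 1 array gave medians from -0.47 to 0.14 in lesions and -0.11 to 0.44 in eutopic endometrium between genotypes, -0.69 to 0.12 in ERBOE lesions minus eutopic endometrium, and -0.14 to 0.32 and -0.57 to -0.0829 in eutopic endometrium minus uterus of ERBOE and PRCre.

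Among single members, signs turned in lesions minus eutopic endometrium of ERBOE for Mylpf with normexp (0.0724), and, when 1 array was left out, for Ckm (-0.66 without ERBOE lesion replicate 3 to 1.31), Myog (-1.57 to 1.14 without ERBOE eutopic replicate 3) and Atp2a1 (-0.10 without ERBOE lesion replicate 1 to 0.27). In PRCre they turned for Acta1 with slide as a fixed block (-0.36) or random block (-0.0591), without PRCre lesion replicate 3 (-0.34) and without PRCre eutopic replicate 2 (-0.46, with 0.47 as the highest value), and for Tnnt3 without replicate 1 of PRCre lesions (0.30) or of PRCre eutopic endometrium (0.17), with -0.37 as the lowest. The sign of Chrna1 in uterus turned without PRCre uterus replicate 2 (0.0822, with -1.22 as the lowest). In each of these the cause was not tested. Same-numbered arrays of different groups did not deviate together (median correlation 0.03, from -0.35 to 0.45 over 45 pairs, and 8 of 18 arrays matched best with their own number), and with the replicate block 199 features passed in ERBOE lesions minus eutopic endometrium. Arrays of different groups on the same slide did deviate together somewhat, with a median correlation of 0.14, against -0.10 on different slides. Most Chrna1, Ckm, Myog, Myh1 and Myh4 values lie at or under background, where differences have no firm size.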
